A study of Phaseolus vulgaris with 12 samples.

Results

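True leaves of 2 common bean (Phaseolus vulgaris) varieties, 120 and 093, were compared in plants that received no cold. The study calls 120 tolerant of cold and 093 sensitive to it, so the comparison shows how the leaves of these varieties differed without cold treatment. Of the 22542 loci in the deposited table, 12689 reached at least 1 FPKM (sequenced fragments scaled by transcript length and library size) in at least 3 of the 6 control libraries, and these were compared. Of them, 10200 carried a gene description, 10965 a Gene Ontology (GO) term and 6163 a KEGG pathway. Each variety had 3 control libraries from untreated plants grown on a rack in days of 12 h light and 12 h darkness, and 3 libraries from plants moved to an incubator at 4 °C for 3 days. Every library was made from messenger RNA of true leaves, and each treatment of a variety had 3 pots. Whether each library of a group stands for its own pot or plant is not stated, so p-values measure only how far the libraries spread, and that spread may be technical. With 1 tolerant and 1 sensitive variety, a difference between 120 and 093 cannot be told apart from a difference between any other pair of bean lines.

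A mature leaf turns light and carbon dioxide into sugar through the photosystems and the Calvin cycle, and its genes follow a daily program set by the circadian clock. In Arabidopsis, the plant from which most names below are taken, the clock is a loop of transcription regulators that act one after the other: morning MYB-like factors, then the pseudo-response regulators (PRR) through the day, then GIGANTEA (GI) and its partners towards evening. Lines of a crop are also known to differ in the large families that recognise pathogens or make defence compounds, such as NBS-LRR receptors, receptor-like kinases, lipoxygenases and terpene synthases. Roles given below are those known for plant proteins of that name and were not measured here. Loci with an MSTRG number were assembled by the program StringTie and can carry more than 1 gene name.

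The 6 libraries fell apart by variety. The first principal component of log2(FPKM + 1) held 64.6% of the variance and the second 13.1%, and rank correlations (Spearman) were 0.933 to 0.968 within a variety and 0.807 to 0.859 between varieties. Between 12091 and 12552 loci reached 1 FPKM in a library, and 4496 to 4835 of all loci were listed at 0. The 20 loci of highest level held 20.7 to 26.9% of the FPKM in 093 and 18.9 to 19.8% in 120, and this share enters every FPKM value. Leaf markers were abundant in every library: photosystem subunits summed to between 17031 and 24849 FPKM in 093 and between 16841 and 18478 FPKM in 120. Proteins of seed storage, root and nodule, vascular and flower descriptions summed to between 227 and 523, 697 and 910.4, 132 and 158 and 55.9 and 60.9 FPKM in 093. In 120 the same sums were 336 and 376, 926 and 987, 131 and 159 and 64 and 68.6 FPKM. The root and nodule and the flower sums did not overlap between the varieties. Senescence-associated proteins summed to between 291 and 356 FPKM in 093 and between 379 and 739 FPKM in 120, and the cell division list to between 769.8 and 958 FPKM and between 976 and 1042 FPKM, again without overlap. Sums of many lists outside these did not overlap either, and the part of these 4 lists in the results was not tested. Lists are matched on words, and the cell division list also holds cycling DOF factor 3, a clock gene, so its sum is not a pure marker of dividing cells. In bulk leaf RNA, fewer cells of a type and less RNA per cell cannot be told apart.

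Without cold, 1489 of the 12689 loci (11.7%) were called different between the varieties, meaning a log2 difference of at least 1 in size and an adjusted p under 0.05 by limma with Benjamini-Hochberg adjustment. Of these, 878 (6.92%) were higher in 120 and 611 (4.82%) were lower. The largest differences lay on the other side: of 135 called loci with a log2 difference of 3 or more in size, 48 were higher and 87 lower in 120, and 72 of the 135 had no description. The median log2 difference over all tested loci was 0.12 towards 120. Scaling the libraries by the median ratio took that median to -0.003 and the calls to 674 higher and 719 lower, and quantile normalization gave 692 higher and 699 lower. The excess of higher calls therefore depended on the scaling, and 53.2% of calls were higher in 120 (672 higher and 590 lower) without 093 control library 2. At 5361 of the 12689 loci (42.2%) the 3 libraries of a variety all lay on 1 side of those of the other, at 3423 (27%) with 120 above and at 1938 (15.3%) with 120 below, so libraries that do not overlap are common. Differences below are on the log2(FPKM + 1) scale, 120 minus 093, with their standard error (SE), and "higher" and "lower" are used of 120 relative to 093 at called loci.

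**Figure D1:**
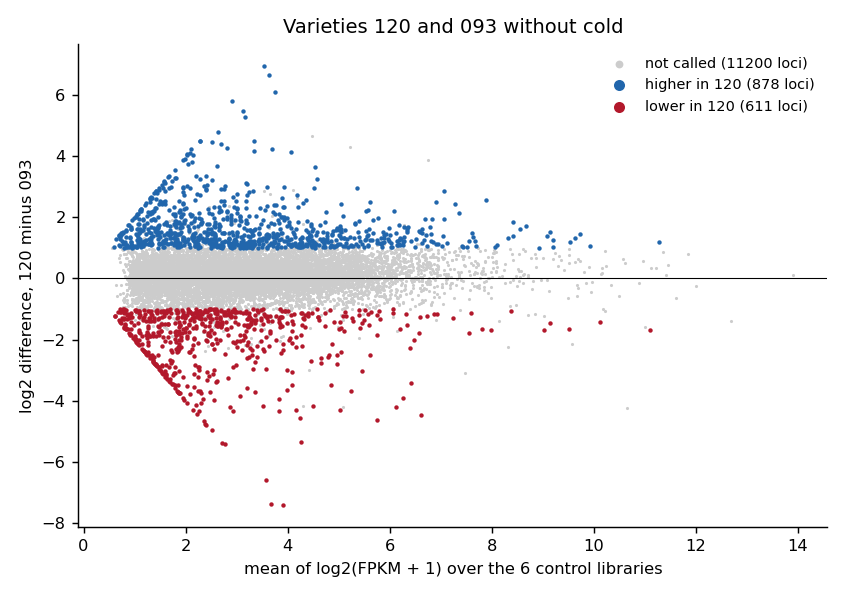
Each point is 1 of the 12689 tested loci, with the mean of log2(FPKM + 1) over the 6 control libraries on the horizontal axis and the log2 difference, 120 minus 093, on the vertical axis. The 878 loci called higher and the 611 called lower are coloured, and the 11200 others lie around a median of 0.12.

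Called loci with a circadian clock description were mostly lower in 120. These descriptions do not cover every locus annotated to circadian rhythm, and called loci outside them went both ways, as given below. Of 21 loci with a clock description, 15 were tested and 9 of them (60%) were called, 1 higher and 8 lower in 120. The median log2 difference of the 15 was -1.29, against 0.12 over all tested loci, and the counts were 1 higher and 8 lower under both other scalings. Without 120 control library 2, 3 members were called higher, and 7 or 8 members were lower whichever library was left out. Among the lists of gene families and pathways with at least 10 tested members, no other had so large a share of called members. The hour at which leaves were taken is not given in the sources used here, so a difference in sampling time between the varieties and a difference in their clocks cannot be told apart.

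The 2 GI loci and the 3 called PRR loci were nearly silent or low in 120. GI, a large nuclear and cytosolic protein that links the clock to flowering and protein turnover, was represented by Phvul.007G083500 at 20.3, 25 and 22.1 FPKM in the 3 libraries of 093 and at 0.487, 0.206 and 0.809 FPKM in those of 120 (log2 difference -3.98, SE 0.193, adjusted p = 2.0e-05). The second GI locus, Phvul.004G088300, stood at 4.33, 4.67 and 4.44 FPKM in 093 and at 0.0322, 0.0228 and 0.0593 FPKM in 120 (log2 difference -2.4, SE 0.15, adjusted p = 5.2e-05). Every 120 library was below every 093 library at both loci. PRR5, a repressor of the morning genes, had 15.5, 25.5 and 17.8 FPKM in 093 and 0.145, 0.0463 and 0.441 FPKM in 120 at Phvul.009G045000 (log2 difference -4.07, SE 0.226, adjusted p = 3.8e-05). PRR7, a relative that acts earlier in the day, had 30.7, 35.3 and 31.2 FPKM in 093 and 4.58, 1.0 and 5.85 FPKM in 120 at Phvul.007G162500 (log2 difference -2.97, SE 0.419, adjusted p = 0.0025). A second locus with a PRR7 description, MSTRG.12776, which also carries a PRR3 description, stood at 33.6, 38.5 and 22.2 FPKM in 093 and 2.45, 0.291 and 3.27 FPKM in 120 (log2 difference -3.57, SE 0.439, adjusted p = 0.0014). The groups did not overlap at any of these 3 PRR loci, and 120 control library 2 was the lowest of all 6 libraries at each of them. The list holds 2 more PRR5 loci, neither of them called. MSTRG.12046 stood at 13.3, 6.92 and 7.15 FPKM in 093 and 16.1, 3.26 and 14.2 FPKM in 120, which overlapped (log2 difference 0.09, SE 0.521, adjusted p = 0.92). Phvul.009G258300 stood at 1.98, 1.95 and 2.35 FPKM in 093 and 1.13, 0.685 and 1.05 FPKM in 120, below the size needed for a call (log2 difference -0.67, SE 0.172, adjusted p = 0.029). All GI and PRR loci beyond Phvul.007G083500 and Phvul.009G045000 were chosen after their values were seen.

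Genes that the clock is known to drive moved in both directions. The pair of loci described as cold, circadian rhythm and RNA binding 2, a glycine-rich RNA-binding protein that cycles in Arabidopsis, stood at 24.3, 70.1 and 39.6 FPKM in 093 and 8.62, 6.91 and 8.84 FPKM in 120 at Phvul.009G023700 (log2 difference -2.2, SE 0.342, adjusted p = 0.0038). At Phvul.011G045000 the levels were 146, 243 and 159.7 FPKM and 32.3, 33.9 and 74.3 FPKM (log2 difference -2.01, SE 0.344, adjusted p = 0.0055), again without overlap. This pair was chosen after its values were seen. A locus described as CCR-like, Phvul.001G085200, was among the largest differences of the table, with 473, 501 and 405 FPKM in 093 and 19.5, 16.8 and 23.6 FPKM in 120 (log2 difference -4.47, SE 0.172, adjusted p = 8.1e-06). The member of the clock list that was higher was cycling DOF factor 3 (CDF3, Phvul.003G189300), a flowering-time repressor whose family is held down by PRR proteins and degraded with GI in Arabidopsis. It had 2.3, 1.54 and 1.21 FPKM in 093 and 9.89, 6.28 and 8.42 FPKM in 120 (log2 difference 1.78, SE 0.223, adjusted p = 0.0015), with no overlap.

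Gene annotation outside the list gave more members of both directions. Of 48 tested loci with the GO term circadian rhythm, 4 were higher and 10 lower (29.2% called), and 7 of the 10 were also in the clock list. The median log2 difference of the 48 was 0.17, against 0.12 over all tested loci. Without 093 control library 3, 8 were higher. Of the 4 higher loci, 3 were described as homeodomain-like, the fold that MYB-type factors use to bind DNA. The most different of these, Phvul.008G240700, stood at 16.5, 15.6 and 15.6 FPKM in 093 and 63.6, 67.2 and 72.9 FPKM in 120 (log2 difference 2.03, SE 0.127, adjusted p = 5.2e-05). The other two were at 11.9, 5.8 and 11 FPKM in 093 and 28.9, 26.1 and 30.1 FPKM in 120 for Phvul.006G086700, and at 53.9, 42.2 and 59.6 FPKM and 114, 95.7 and 128 FPKM for Phvul.004G143400. All 3 were higher in every 120 library than in every 093 library, but for Phvul.004G143400 the call was lost without 093 control library 2 (0.97, adjusted p = 0.017). Its difference was also below 1 under both other scalings. The 100 tested loci in the KEGG pathway of plant circadian rhythm had a median log2 difference of 0.16. Of these, 9 were higher and 13 lower (22%, against 11.7% over all loci). The called loci included a member of the PEBP family (Phvul.001G097200), the family of the flowering signal FT and its antagonists. It was at 0.252, 0.274 and 0 FPKM in 093 and 4.54, 11.5 and 3.51 FPKM in 120 (log2 difference 2.54, SE 0.367, adjusted p = 0.0027). Also among the called loci was a pair for salt tolerance homolog2, a B-box zinc finger protein of light signalling, which went opposite ways. One of them, Phvul.009G004200, was at 5.06, 9.9 and 8.77 FPKM in 093 and 0, 0.0635 and 0.106 FPKM in 120 (log2 difference -3.03, SE 0.24, adjusted p = 0.00018). The other, Phvul.001G009700, was at 3.4, 2.14 and 2.7 FPKM in 093 and 7.58, 11.2 and 7.64 FPKM in 120 (log2 difference 1.38, SE 0.21, adjusted p = 0.0034). These loci were chosen after their values were seen.

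After 3 days of cold, GI and PRR5 had close mean levels in the varieties. GI (Phvul.007G083500) was at 121 ± 6.34 FPKM (mean ± SD, n = 3) in the cold libraries of 093 and 122 ± 27.7 FPKM in those of 120, and PRR5 (Phvul.009G045000) was at 107 ± 5.03 and 104 ± 29.3 FPKM. Under cold the log2 difference was -0.02 (SE 0.179, adjusted p = 0.94) for GI and -0.07 (SE 0.207, adjusted p = 0.82) for PRR5. The change of the difference with cold was called for 6 of the 8 lower members and for CDF3, where called means the same thresholds applied to that change. This test uses the control libraries by which the members were called, so it is not independent of their choice. Of the 15 tested members, 4 were called between the varieties under cold, 2 of them in the same direction as without cold.

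**Figure D2:**
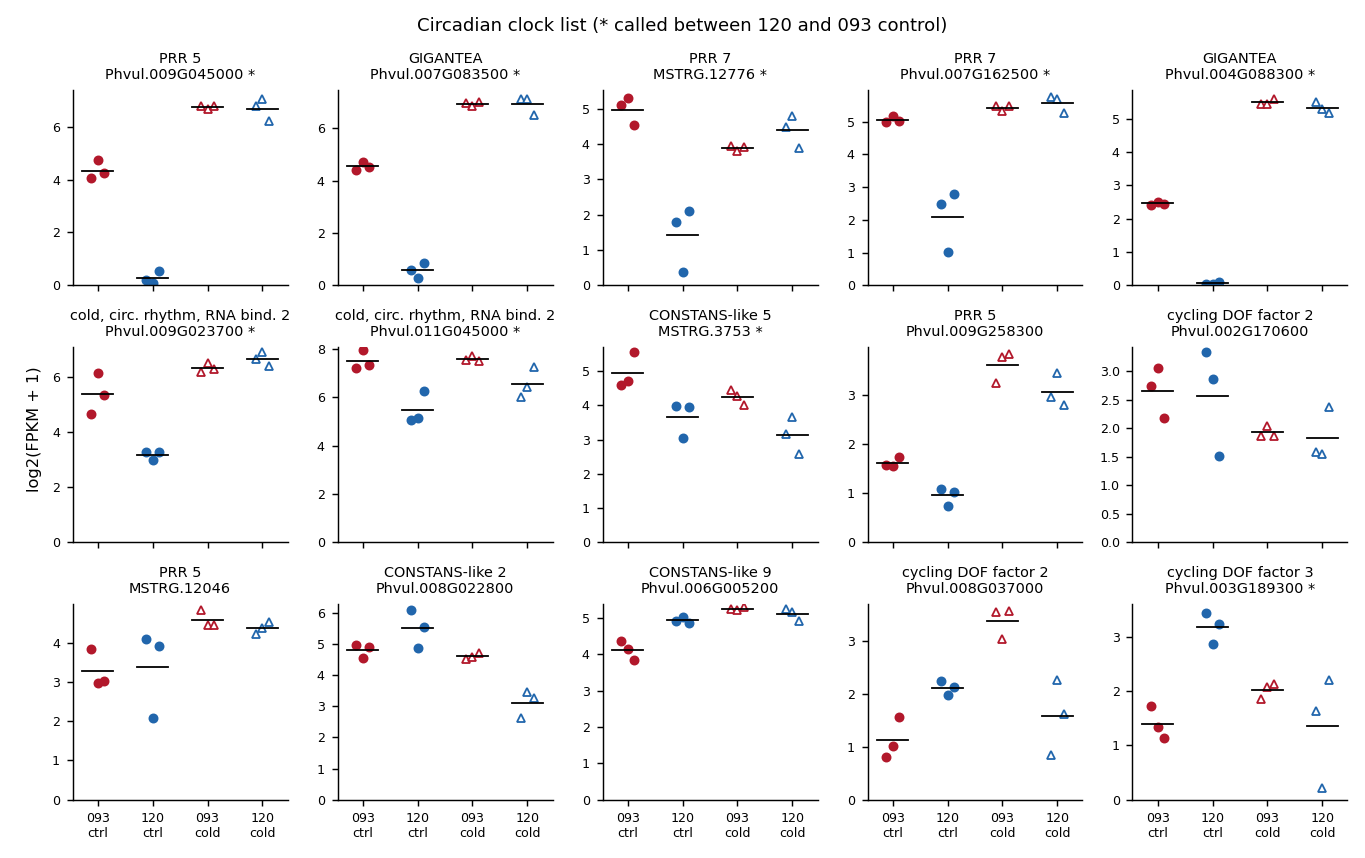
Level as log2(FPKM + 1) (vertical axes) of each of the 15 tested clock loci in every library, 1 point each with the group mean as a line, grouped as 093 control, 120 control, 093 cold and 120 cold. The 2 GI loci and the 3 called PRR loci sit far lower in the 120 controls than in the 093 controls and closer together under cold, while the PRR5 loci MSTRG.12046 and Phvul.009G258300 do not show this.

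Outside the clock list, the described loci of largest difference belonged to many families. The largest rise towards 120 was an MLP-like protein 423 (Phvul.009G252400), of the family of major latex proteins and pathogenesis-related class 10 proteins, with 0.061, 0.0213 and 0.0395 FPKM in 093 and 71.9, 264 and 107 FPKM in 120 (log2 difference 6.94, SE 0.418, adjusted p = 4.7e-05). A copper transport protein (Phvul.008G282200) had 0.526, 0.199 and 0.242 FPKM in 093 and 57.5, 67.2 and 48.7 FPKM in 120 (log2 difference 5.47, SE 0.179, adjusted p = 4.4e-06). An HCO3- transporter family member (Phvul.005G174400), of the family that holds the plant borate exporters, had 0.409, 0.353 and 0.576 FPKM in 093 and 64.5, 46.5 and 53.6 FPKM in 120 (log2 difference 5.26, SE 0.169, adjusted p = 4.4e-06). These loci were all but silent in 093 and abundant in every 120 library. Also higher were a pyridoxal phosphate phosphatase-related protein (Phvul.010G141200), with 0.518, 0.266 and 0.46 FPKM in 093 and 28.2, 32.3 and 25.5 FPKM in 120, and a PAR1 protein (Phvul.007G071100), with 0.817, 0.771 and 0.315 FPKM in 093 and 34.2, 22.5 and 34.4 FPKM in 120. A major facilitator protein with an SPX domain (Phvul.008G069400), the domain by which plants sense phosphate status, had 5.45, 1.16 and 3.65 FPKM in 093 and 95, 52.7 and 67.4 FPKM in 120 (log2 difference 4.14, SE 0.4, adjusted p = 0.00047).

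The largest falls were as steep. An acyl transferase or lysophospholipase (Phvul.010G047900), a family that acts on membrane lipids, had 31.7, 49.9 and 43.8 FPKM in 093 and 0.0396, 0 and 0.0103 FPKM in 120 (log2 difference -5.37, SE 0.193, adjusted p = 5.3e-06). A haloacid dehalogenase-like hydrolase (Phvul.007G056000), of a family of phosphatases, had 75.2, 212 and 111 FPKM in 093 and 2.83, 0.461 and 3.83 FPKM in 120 (log2 difference -5.34, SE 0.508, adjusted p = 0.00044). A glucose-1-phosphate adenylyltransferase family protein (Phvul.011G044000), the family whose best known member supplies ADP-glucose for starch, had 278, 277 and 246 FPKM in 093 and 13.3, 6.02 and 11.9 FPKM in 120 (log2 difference -4.62, SE 0.264, adjusted p = 4.2e-05). The libraries of the varieties did not overlap at any of these loci, which was a condition for naming them. Glutamine-dependent asparagine synthase 1 (Phvul.006G069300), which makes the transport amide asparagine and is induced by darkness and low sugar in Arabidopsis, had 65.7, 81.1 and 138 FPKM in 093 and 3.93, 0.705 and 5.92 FPKM in 120 (log2 difference -4.56, SE 0.511, adjusted p = 0.00092). Every 120 library was far below every 093 library, and the libraries within each variety also differed widely.

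**Figure D3:**
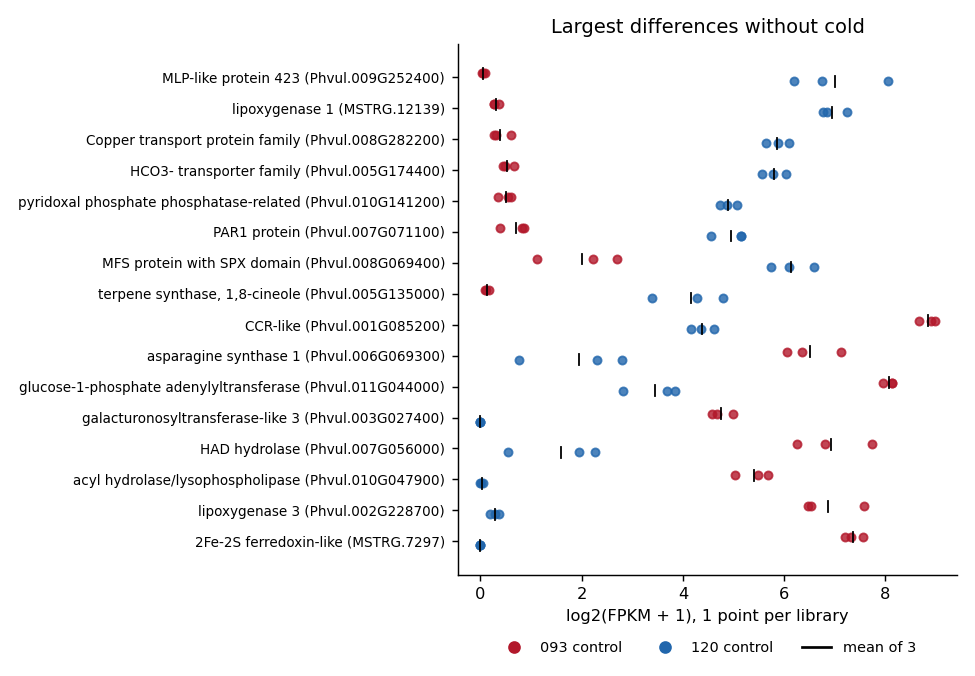
Level as log2(FPKM + 1) (horizontal axis) in each control library, with the variety mean as a line, of the 8 described loci that were most strongly higher and the 8 that were most strongly lower in 120. The 16 loci were picked for their large differences among loci at which the 2 varieties do not overlap. A pair of the falls is listed at 0 in all 3 libraries of 120.

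Some loci were listed at 0 in all 3 control libraries of a variety while standing at 10 FPKM or more in all 3 of the other, which was so for 7 loci present in 093 and for 1 present in 120. The highest was MSTRG.7297, described as a 2Fe-2S ferredoxin-like protein, a small electron carrier, with 186, 145 and 158 FPKM in 093. It was followed by a galacturonosyltransferase-like 3 (Phvul.003G027400), of a family that builds pectin, with 24.6, 22.9 and 30.6 FPKM, and by the undescribed MSTRG.6318 with 21.4, 15.1 and 19.6 FPKM. The locus present only in 120 was the undescribed MSTRG.5062, with 22.9, 12.4 and 19.1 FPKM. Of the 7 loci, 5 were listed at 0 in the 3 cold libraries of 120 as well, and 6 were at 1 FPKM or more in all 3 cold libraries of 093. MSTRG.5062 was listed at 0 in the cold libraries of 093 and was above 1 FPKM in those of 120. A gene that is missing or too different for its reads to be assigned and a gene that is not transcribed cannot be told apart in these values.

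In photosynthesis, the called enzymes of the Calvin cycle were all higher in 120, while called photosystem subunits and antenna proteins were divided. Of 22 tested Calvin cycle enzymes, 5 (22.7%) were called, all higher, and the median log2 difference was 0.53. Under both other scalings 4 were higher and none was lower, and without 093 control library 2, 120 control library 2 or 120 control library 3 the count fell to 3. The B subunit of the plastid glyceraldehyde-3-phosphate dehydrogenase (MSTRG.10102), which carries out the reducing step of the cycle, had 625, 373 and 535 FPKM in 093 and 1107, 1416 and 1208 FPKM in 120 (log2 difference 1.31, SE 0.251, adjusted p = 0.0093). A rubisco activase (Phvul.010G016000), which frees the active sites of rubisco, had 9.11, 4.16 and 10.3 FPKM in 093 and 44.6, 29.2 and 71.1 FPKM in 120 (log2 difference 2.47, SE 0.385, adjusted p = 0.0039). Both were higher in every 120 library than in every 093 library. The A subunit (MSTRG.519) was higher too, at 2021, 1316 and 1652 FPKM in 093 and 3102, 4584 and 3702 FPKM in 120 (log2 difference 1.19, SE 0.298, adjusted p = 0.026), but the call was lost without 093 control library 2 (1.04, adjusted p = 0.060), without 093 control library 3 (1.2, adjusted p = 0.083), without 120 control library 2 (1.05, adjusted p = 0.060) and without 120 control library 3 (1.2, adjusted p = 0.089). It was also lost with no filter on low values (adjusted p = 0.21). The summed level of the Calvin list was 18475 and 27288 FPKM in 093 and 27684 and 31201 FPKM in 120, which did not overlap. In the KEGG pathway of carbon fixation, 15 of 84 tested loci were higher and 5 lower (23.8% called), and 8 were higher without 093 control library 2 or 120 control library 3.

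Photorespiration and chlorophyll synthesis gave further high-level loci. Alanine-2-oxoglutarate aminotransferase 2 (Phvul.002G150800), of the enzyme family that turns over glyoxylate in photorespiration, had 553, 421 and 581 FPKM in 093 and 1215, 1545 and 1432 FPKM in 120 (log2 difference 1.44, SE 0.223, adjusted p = 0.0038). Of 10 tested loci for chlorophyll and tetrapyrrole synthesis, 3 were higher and 1 lower (40%, against 11.7% over all loci). The median log2 difference was 0.09, or -0.05 and -0.06 under the other scalings. The H subunit of magnesium chelatase (Phvul.007G252700), which inserts the magnesium of chlorophyll, had 24.1, 18 and 36.2 FPKM in 093 and 83.4, 112 and 99.2 FPKM in 120 (log2 difference 1.92, SE 0.252, adjusted p = 0.0019). Its second locus, Phvul.001G132200, chosen after its values were seen, had 243, 172 and 269 FPKM in 093 and 618, 887 and 748 FPKM in 120 (log2 difference 1.72, SE 0.236, adjusted p = 0.0022). Neither locus overlapped between the varieties. The lower one was protochlorophyllide oxidoreductase A (Phvul.011G148900), the light-dependent reductase known from seedlings in the dark, at 40.4, 76.5 and 53.7 FPKM in 093 and 3.1, 22 and 5.65 FPKM in 120 (log2 difference -2.71, SE 0.58, adjusted p = 0.014). For this locus the call was lost without 093 control library 2 (-2.48, adjusted p = 0.062).

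Of 46 tested photosystem subunits, 3 were higher and 2 lower (10.9%), close to the share over all loci, and 5 were higher without 120 control library 1. Of 21 antenna proteins, 2 were higher and 3 lower (23.8%), with a median of -0.40. Photosystem I subunit O (Phvul.011G096400), a small membrane subunit of photosystem I, was the described locus of highest level among the falls, at 2005, 1709 and 1814 FPKM in 093 and 733, 523 and 818 FPKM in 120 (log2 difference -1.43, SE 0.245, adjusted p = 0.0056). The photosystem I light-harvesting gene 6 (Phvul.009G225500), a minor antenna protein, went the other way, at 30.6, 23 and 12.7 FPKM in 093 and 65.3, 179.99 and 92.1 FPKM in 120 (log2 difference 2.25, SE 0.418, adjusted p = 0.0080). Neither overlapped between the varieties.

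Lipoxygenases, which open the pathway from fatty acids to jasmonate and other oxylipins, were divided between the varieties by gene. Of 25 tested loci of lipoxygenases and jasmonate synthesis and signalling, 5 were higher and 3 lower (32% called), and 6 of these 8 were lipoxygenases. Under median-ratio scaling the split was 4 and 4. Lipoxygenase 3 (Phvul.002G228700), of the plastid type that feeds jasmonate synthesis, had 87.8, 91.7 and 190.4 FPKM in 093 and 0.138, 0.289 and 0.219 FPKM in 120 (log2 difference -6.58, SE 0.291, adjusted p = 1.3e-05). Lipoxygenase 1 at MSTRG.12139, of the type known from Arabidopsis for 9-lipoxygenase activity, had the reverse pattern, with 0.199, 0.285 and 0.212 FPKM in 093 and 113, 108 and 150.5 FPKM in 120 (log2 difference 6.65, SE 0.166, adjusted p = 1.6e-06). Each was all but silent in the other variety.

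The other lipoxygenases were chosen after their values were seen. Lipoxygenase 2 (Phvul.011G056500), also of the plastid type, had 27, 25.6 and 41.3 FPKM in 093 and 1.24, 1.59 and 0.862 FPKM in 120 (log2 difference -3.84, SE 0.226, adjusted p = 4.5e-05). A PLAT/LH2 domain lipoxygenase (Phvul.007G055600) had 33.6, 40.1 and 29.2 FPKM in 093 and 7.2, 6.43 and 7.96 FPKM in 120 (log2 difference -2.1, SE 0.163, adjusted p = 0.00017). MSTRG.12139 carries the gene names Phvul.010G134900 and Phvul.010G135000, and the lipoxygenase 1 loci Phvul.010G134700 and Phvul.010G134800 have the names just before them. These stood at 0.121, 1.06 and 0.984 FPKM in 093 and 10.2, 6.78 and 7.14 FPKM in 120 for Phvul.010G134700, and at 3.59, 2.27 and 2.08 FPKM and 11.9, 12.1 and 14.8 FPKM for Phvul.010G134800. All 3 loci were higher in every 120 library, and reads that such similar copies share could be split between them by the authors' counting. A locus described as 12-oxophytodienoate reductase 1 (Phvul.001G000800) was higher as well. It had 8.7, 5.02 and 2.88 FPKM in 093 and 16.6, 17.2 and 21.4 FPKM in 120 (log2 difference 1.66, SE 0.314, adjusted p = 0.0085). Its family holds the peroxisomal step of jasmonate synthesis, but whether this member carries out that step was not tested.

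Immune receptors differed in both directions. Of 333 loci with an NBS-LRR description, the intracellular receptors that recognise pathogen effectors, 73 were tested and 17 (23.3%) were called, 10 higher and 7 lower. Of these, 13 were of the TIR class, 7 higher and 6 lower. Gene names beginning Phvul.010 were carried by 9 of the 10 higher and 4 of the 7 lower members, and by 31 of the 73 tested. The largest fall was at MSTRG.12121 of the TIR class, with 8.22, 12.6 and 17.5 FPKM in 093 and 0.18, 0.81 and 0.632 FPKM in 120 (log2 difference -3.13, SE 0.287, adjusted p = 0.00037). The largest rise was at MSTRG.11638 of the same class, with 0.318, 0.476 and 0.792 FPKM in 093 and 9.05, 8.71 and 9.49 FPKM in 120 (log2 difference 2.73, SE 0.173, adjusted p = 5.3e-05). The varieties did not overlap at either. In each direction 2 members were listed at 0 in all 3 control libraries of the other variety. NBS-LRR genes form families of similar copies, so reads could be divided among them by the authors' counting.

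Among receptors at the cell surface, more of the called loci were higher than lower in 120, while most loci were not called. Of 121 tested receptor-like proteins and kinases, 22 were higher and 7 lower (24%, against 11.7% over all loci). The median log2 difference of the 121 was 0.33. The counts were 19 and 9 under median-ratio scaling and 19 and 7 under quantile normalization. S-locus lectin kinases made up 6 of the higher and none of the lower members, loci described as receptor like protein 5 and 3, and leucine-rich repeat kinases 5 and 2. A receptor like protein at MSTRG.9201, of a family of surface receptors without a kinase domain, had 0.00872, 0.00766 and 0.0095 FPKM in 093 and 19.1, 14.8 and 12.8 FPKM in 120 (log2 difference 4.02, SE 0.183, adjusted p = 1.5e-05). An S-locus lectin kinase (Phvul.011G150950) was listed at 0 in all 3 libraries of 093 and stood at 5.2, 4.66 and 3.7 FPKM in 120. Both were at or near 0 in every 093 library.

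Other defence lists were divided. Of 21 tested pathogenesis-related proteins, chitinases and glucanases, 2 were higher and 2 lower (19%, against 11.7% over all loci), with 1 lower without 093 control library 2 or 120 control library 2. Besides the MLP-like protein above, a pathogenesis-related family protein (Phvul.009G135800) went the other way, with 40.5, 29 and 22.3 FPKM in 093 and 6.37, 10.04 and 9.0 FPKM in 120 (log2 difference -1.72, SE 0.247, adjusted p = 0.0027). In the list of salicylate and systemic immunity, 1 of 16 was higher and 2 lower (18.8%), all 3 of the MLO family, whose loss gives mildew resistance in several crops, and the higher one was lost without 093 control library 2. One of the lower loci, Phvul.009G117900, had 11.7, 15.8 and 19.8 FPKM in 093 and 2.37, 3.82 and 2.3 FPKM in 120 (log2 difference -2.12, SE 0.237, adjusted p = 0.00090). The varieties did not overlap at either locus. Of 7 tested protease inhibitors, 0 were called by limma, with 2 at an unadjusted p under 0.05, and 1 was called lower without 093 control library 3.

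Enzymes of specialised metabolism differed gene by gene. Of 41 tested terpenoid and sterol enzymes, 6 were higher and 2 lower (19.5%). A terpene synthase of the 1,8-cineole type (Phvul.005G135000), which makes a volatile monoterpene in Arabidopsis, had 0.0791, 0.119 and 0.0697 FPKM in 093 and 18.4, 9.43 and 26.7 FPKM in 120 (log2 difference 4.03, SE 0.33, adjusted p = 0.00021). A terpenoid cyclase (MSTRG.6964), of the family that folds squalene into triterpenes, had 8.4, 18.8 and 24.7 FPKM in 093 and 0.149, 0.55 and 0.283 FPKM in 120 (log2 difference -3.68, SE 0.356, adjusted p = 0.00047). Neither overlapped between the varieties. Of 56 tested cytochrome P450 enzymes, 7 were higher and 6 lower (23.2%), and 6 and 7 under both other scalings, with up to 11 higher without 120 control library 1 and up to 9 lower without 120 control library 2. A P450 of family 83B1 (Phvul.010G079100), a type that acts on aldoximes in Arabidopsis, had 22.6, 10.9 and 5.27 FPKM in 093 and 0.0292, 0.213 and 0.0318 FPKM in 120 (log2 difference -3.47, SE 0.428, adjusted p = 0.0014), with no overlap.

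Of 40 tested UDP-glycosyltransferases, which attach sugars to small molecules, 7 were higher and 4 lower (27.5%), but 3 were higher without 093 control library 2. Of 21 tested phenylpropanoid and flavonoid enzymes, 0 were higher and 2 were lower (9.52%, below the 11.7% over all loci). Without 093 control library 1, 1 was higher. The 2 lower ones were a hydroxycinnamoyl transferase (Phvul.005G098900) and a cinnamyl-alcohol dehydrogenase (Phvul.006G200600), both enzymes of the branch to lignin. The transferase had 6.75, 4.82 and 7.77 FPKM in 093 and 0.0849, 0.911 and 0.473 FPKM in 120 (log2 difference -2.34, SE 0.258, adjusted p = 0.00086). The dehydrogenase had 7.73, 4.72 and 6.87 FPKM in 093 and 0.966, 0.844 and 0.611 FPKM in 120 (log2 difference -2.02, SE 0.205, adjusted p = 0.00059). Each was lower in every 120 library. Among 56 tested 2-oxoglutarate-dependent oxygenases, 5 were higher and 6 lower (19.6%), and 2 were higher under median-ratio scaling and without 120 control library 2. One of the lower members, Phvul.006G083200, had 14.1, 7.49 and 11.3 FPKM in 093 and 0.0844, 0 and 0.0215 FPKM in 120 (log2 difference -3.49, SE 0.229, adjusted p = 6.5e-05).

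Of 31 tested loci of starch synthesis and breakdown, 4 were higher and none was lower (12.9%, close to the 11.7% over all loci), and 2 were higher under quantile normalization. The list is matched on words and does not hold the glucose-1-phosphate adenylyltransferase Phvul.011G044000 above, which was lower. Beta-amylase 6 (Phvul.005G112400), of the family that releases maltose from starch, had 7.39, 5.72 and 4.77 FPKM in 093 and 14.3, 19.97 and 14 FPKM in 120 (log2 difference 1.3, SE 0.205, adjusted p = 0.0040). A chloroplast beta-amylase (Phvul.003G226900), chosen after its values were seen, had 132, 124 and 140.4 FPKM in 093 and 324, 245 and 379 FPKM in 120 (log2 difference 1.23, SE 0.195, adjusted p = 0.0041), which fell to 0.98 under quantile normalization. Both were higher in every 120 library. Of 52 tested loci of sucrose, trehalose and raffinose metabolism, 6 were higher and 3 lower (17.3%). The lower count fell to 1 without 093 control library 2, 093 control library 3 or 120 control library 2. A raffinose synthase family protein (Phvul.004G007100) had 4.08, 1.71 and 4.39 FPKM in 093 and 13.7, 13.7 and 21 FPKM in 120 (log2 difference 2.00, SE 0.299, adjusted p = 0.0032). The polyol and monosaccharide transporter 5 (Phvul.011G046700) had 2.59, 1.6 and 2.26 FPKM in 093 and 10.2, 8.57 and 5.75 FPKM in 120 (log2 difference 1.52, SE 0.231, adjusted p = 0.0034). Both sets were free of overlap.

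Of 37 tested loci of nitrogen assimilation and amide metabolism, 4 were higher and 4 lower (21.6%), with 6 higher without 093 control library 1 or 120 control library 3 and 2 lower without 093 control library 1, 120 control library 1 or 120 control library 3. Besides asparagine synthase 1 above, ureidoglycine aminohydrolase (Phvul.003G225600) stood out, an enzyme that breaks down ureides, the nitrogen carriers of tropical legumes. It had 5.47, 2.56 and 4.87 FPKM in 093 and 15.2, 26.8 and 19.7 FPKM in 120 (log2 difference 2.04, SE 0.283, adjusted p = 0.0023), with no overlap. In the list of oligopeptide and amino acid transporters, 13 of 113 tested loci were higher and 8 lower (18.6%). This list is matched on words and also holds major facilitator proteins whose descriptions name no substrate. One of these (Phvul.007G017500) had 61.6, 55.3 and 48.4 FPKM in 093 and 3.36, 3.92 and 3.28 FPKM in 120 (log2 difference -3.63, SE 0.149, adjusted p = 9.6e-06), and again every 120 library was lower.

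Of 31 tested loci of cuticle and wax synthesis, 8 were higher and 3 lower (35.5%), with a median of 0.54, and 10 of these 11 were GDSL lipases, an esterase family with roles in cutin and in defence that made up 28 of the 31. The counts were 6 and 3 under median-ratio scaling. In the KEGG pathway of cutin, suberine and wax biosynthesis, 3 of 22 were higher and 2 lower (22.7%, against 11.7% over all loci). One GDSL lipase (Phvul.009G018300) had 1.63, 1.85 and 3.25 FPKM in 093 and 25.4, 25.3 and 26 FPKM in 120 (log2 difference 3.07, SE 0.202, adjusted p = 6.7e-05). Its neighbour by name, Phvul.009G018200, chosen after its values were seen, was higher too, at 2.74, 1.33 and 1.93 FPKM in 093 and 12.7, 15.8 and 10.7 FPKM in 120. A GDSL-motif lipase 5 (Phvul.010G124800) had 0.492, 0.345 and 0.523 FPKM in 093 and 10.2, 4.33 and 17.5 FPKM in 120 (log2 difference 2.83, SE 0.405, adjusted p = 0.0026). The varieties did not overlap at these loci.

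Of 19 tested fatty acid desaturase and synthesis loci, 5 were higher and none was lower (26.3%), with a median of 0.57 and the same counts under both other scalings. In KEGG, the biosynthesis of unsaturated fatty acids had 2 higher and 2 lower of 23 (17.4%, against 11.7% over all loci). There was 1 higher without 093 control library 2 and 1 lower without 093 control library 1. Fatty acid elongation had 0 called of 13 by limma, with 3 at an unadjusted p under 0.05, and 1 was higher without 120 control library 1. Fatty acid desaturase 5 (Phvul.010G156200), which places a double bond in plastid lipids, had 1.3, 3.23 and 6.12 FPKM in 093 and 15, 18.3 and 15 FPKM in 120 (log2 difference 2.05, SE 0.371, adjusted p = 0.0071). Fatty acid desaturase 6 (Phvul.003G156600), which makes dienoic fatty acids in the plastid, had 22.5, 25.4 and 40.5 FPKM in 093 and 64.9, 78.9 and 72.5 FPKM in 120 (log2 difference 1.3, SE 0.224, adjusted p = 0.0057). Acetyl-CoA carboxylase 1 (Phvul.009G028700), which makes the malonyl-CoA used in fatty acid elongation, had 27.1, 21.7 and 33 FPKM in 093 and 62.5, 57.2 and 71.9 FPKM in 120 (log2 difference 1.21, SE 0.184, adjusted p = 0.0034). All 3 were higher in every 120 library, and the last 2 were chosen after their values were seen. Fatty acid desaturase 8 (Phvul.006G068600), the cold-induced trienoic desaturase of Arabidopsis plastids, stood at 3.4, 3.71 and 6.19 FPKM in 093 and 11.6, 25.7 and 10.9 FPKM in 120 (log2 difference 1.58, SE 0.341, adjusted p = 0.015), but the call was lost without 093 control library 2 (1.5, adjusted p = 0.059).

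Cell wall genes were divided. Of 36 tested pectin-modifying enzymes, 7 were higher and 2 lower (25%), with 4 higher without 093 control library 1. An inhibitor of invertases or pectin methylesterases (Phvul.002G318500) was the most abundant of them, with 251, 49.8 and 72.8 FPKM in 093 and 584, 542 and 599.6 FPKM in 120 (log2 difference 2.55, SE 0.525, adjusted p = 0.012), and 093 control library 1 was nearest to 120. Of 57 tested cellulose synthases and arabinogalactan proteins, 8 were higher and 3 lower (19.3%, against 11.7% over all loci). Without 093 control library 2, 5 were higher. Cellulose synthase-like E1 (Phvul.008G279800), a relative of the cellulose synthases, had 60.04, 54.3 and 50.6 FPKM in 093 and 2.56, 1.27 and 5.11 FPKM in 120 (log2 difference -3.93, SE 0.328, adjusted p = 0.00023). Beta galactosidase 1 (Phvul.010G139300), which trims galactose from wall polymers, had 572, 464 and 347 FPKM in 093 and 158, 102 and 166 FPKM in 120 (log2 difference -1.69, SE 0.263, adjusted p = 0.0038). Of 27 tested wall-loosening loci, 3 were higher and 3 lower (22.2%). There was 1 higher without 093 control library 1 and 1 lower without 120 control library 3. Expansin B3 (Phvul.005G104600) had 0.304, 0.157 and 0.239 FPKM in 093 and 3.96, 8.11 and 6.46 FPKM in 120 (log2 difference 2.5, SE 0.24, adjusted p = 0.00046). At all 4 of these loci the varieties were apart.

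Water channels, calcium signalling and hormone genes gave single large differences. Of 23 tested aquaporins, 4 were higher and 2 lower (26.1%). The tonoplast intrinsic protein 2;3 (Phvul.002G057500), a channel of the vacuole membrane, had 11.1, 8.88 and 16.8 FPKM in 093 and 1.91, 2.5 and 2.16 FPKM in 120 (log2 difference -2.01, SE 0.232, adjusted p = 0.0010). NOD26-like intrinsic protein 5;1 (Phvul.007G084000), a boric acid channel in Arabidopsis, had 4.52, 1.4 and 2.99 FPKM in 093 and 15, 16.8 and 10.2 FPKM in 120 (log2 difference 1.97, SE 0.32, adjusted p = 0.0045). Neither overlapped. Of 96 tested calcium sensors and kinases, 7 were higher and 3 lower (10.4%). A calcium-binding EF hand protein (MSTRG.287) had 130.4, 65.2 and 99.4 FPKM in 093 and 3.4, 4.82 and 5.08 FPKM in 120 (log2 difference -4.15, SE 0.262, adjusted p = 5.3e-05). CBL-interacting protein kinase 23 (Phvul.009G213000), which activates potassium and nitrate uptake in Arabidopsis, had 2.3, 2.21 and 3.33 FPKM in 093 and 15.4, 12.1 and 15.3 FPKM in 120 (log2 difference 2.09, SE 0.183, adjusted p = 0.00029). Here too every library of a variety was on its side.

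Of 79 tested loci of abscisic acid synthesis and signalling, 8 were higher and 2 lower (12.7%), with 1 lower without 120 control library 2. Abscisic acid responsive elements-binding factor 2 (Phvul.003G291800), a bZIP activator of drought genes, had 10.3, 10.8 and 11.2 FPKM in 093 and 32.6, 35.1 and 35.5 FPKM in 120 (log2 difference 1.59, SE 0.126, adjusted p = 0.00018). Of 59 tested auxin loci, 5 were higher and 2 lower (11.9%, close to the 11.7% over all loci). The counts were 3 higher without 093 control library 2 and 1 lower without 4 of the 6 libraries in turn. Auxin response factor 8 (Phvul.008G242400) had 7.62, 5.73 and 5.57 FPKM in 093 and 1.22, 1.06 and 1.22 FPKM in 120 (log2 difference -1.74, SE 0.171, adjusted p = 0.00050). Both factors were free of overlap between the varieties. Of 32 tested gibberellin, cytokinin and brassinosteroid loci, 0 were higher and 6 lower (18.8%), and 2 were higher without 093 control library 3. The 6 include the 3 PRR loci above, whose descriptions match the word response regulator. The most abundant of the 6 was a GAST1 protein homolog (Phvul.001G006300), a small gibberellin-responsive peptide, with 297, 336 and 254 FPKM in 093 and 21.6, 23.7 and 13.2 FPKM in 120 (log2 difference -3.89, SE 0.234, adjusted p = 4.7e-05).

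Transcription factor families outside the clock were called at shares from below to above the 11.7% over all loci. Of 33 tested MYB factors, 2 were higher and 4 lower (18.2%), with 1 higher without 4 of the 6 libraries in turn and 2 lower without 093 control library 1. Of 25 tested WRKY factors, 0 were higher and 3 lower (12%), with 1 lower without 093 control library 1, 120 control library 1 or 120 control library 2. WRKY70 (MSTRG.9096), a regulator between salicylate and jasmonate defence, had 9.19, 9.76 and 11.2 FPKM in 093 and 2.83, 2.14 and 3.98 FPKM in 120 (log2 difference -1.49, SE 0.202, adjusted p = 0.0021). Of 24 NAC factors, 1 was higher and 0 were lower (4.17%), xylem NAC domain 1 (Phvul.002G273100), with 4.21, 1.57 and 2.24 FPKM in 093 and 15.8, 12.7 and 11.3 FPKM in 120 (log2 difference 2.01, SE 0.272, adjusted p = 0.0021), and 3 were higher and 1 lower without 093 control library 1. Of 55 bHLH factors, 6 were higher and 3 lower (16.4%), but 3 were higher and 4 lower under median-ratio scaling, and 3 were higher without 120 control library 2. The bHLH factor of largest difference, Phvul.010G043400, had 12.5, 9.51 and 21.5 FPKM in 093 and 105, 119.9 and 114 FPKM in 120 (log2 difference 2.95, SE 0.266, adjusted p = 0.00034). None of these 3 factors overlapped between the varieties. Of 12 AP2/ERF factors, 6 heat shock transcription factors and 3 CBF/DREB factors, the activators of the cold response, 0 were called by limma, with 4, 3 and 0 at an unadjusted p under 0.05. Without 093 control library 3, 1 heat shock factor was called in each direction.

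Lists of stress proteins were called at shares on both sides of the 11.7% over all loci. Of 13 tested cold-regulated, dehydrin and LEA proteins, 0 were higher and 1 was lower (7.69%), too few loci to set this share apart from that over all loci. The median log2 difference of the 13 was -0.31, with 1 of them above 0, against 0.12 over all loci. The lower one was cold regulated gene 27 (Phvul.001G022200), which in Arabidopsis is under clock control, at 3.72, 8.7 and 3.09 FPKM in 093 and 0.304, 1.39 and 0.152 FPKM in 120 (log2 difference -1.9, SE 0.393, adjusted p = 0.012), with no overlap. Of 122 tested heat shock proteins and chaperones, 14 were higher and 5 lower (15.6%), with 9 higher under median-ratio scaling and 8 without 120 control library 3. The chaperonin-like RbcX protein (Phvul.006G146300), an assembly factor of rubisco, was one of the lower members, with 13.2, 22.7 and 9.57 FPKM in 093 and 0.111, 0.835 and 0.136 FPKM in 120 (log2 difference -3.53, SE 0.331, adjusted p = 0.00042). Of 85 antioxidant enzymes, 6 were higher and 3 lower (10.6%). The largest differences were at a pair of thioredoxin superfamily loci, Phvul.003G138800 and Phvul.003G139178, redox proteins with nearly the same values. The first had 0.272, 0.172 and 0.0601 FPKM in 093 and 9.72, 7.44 and 7.56 FPKM in 120 (log2 difference 2.98, SE 0.175, adjusted p = 4.5e-05), and the second 0.207, 0.171 and 0.0597 FPKM and 9.33, 7.28 and 7.03 FPKM. Whether these are near-identical copies that share reads was not tested.

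Lists of ribosomal, proteasome, F-box and oxidative phosphorylation proteins stood below the 11.7% over all loci. Of 219 tested ribosomal proteins, 4 were higher and 3 lower (3.20%), with a median of 0.05. The list is matched on words, and its higher members include a locus of the mitochondrial ribosomal protein L51/S25/CI-B8 family (Phvul.010G124900). Its description does not say which member of that family it is. This locus stood at 2.12, 1.94 and 3.37 FPKM in 093 and 15, 16.4 and 17.9 FPKM in 120 (log2 difference 2.34, SE 0.192, adjusted p = 0.00021). Of 32 proteasome loci, 1 was called, a proteasome inhibitor-related protein (Phvul.006G149300) that was lower, with 45.4, 40.01 and 47.7 FPKM in 093 and 13, 11.9 and 19.2 FPKM in 120 (log2 difference -1.55, SE 0.194, adjusted p = 0.0015). Both loci were apart between the varieties. Of 42 F-box proteins, 1 was called, which was lost without 120 control library 1, and of 53 loci of mitochondrial oxidative phosphorylation, 3. Of 32 pentatricopeptide repeat proteins, which process organelle transcripts, 0 were higher and 5 lower (15.6%), which is above the share over all loci, although their median was 0.29, and 3 were lower without 093 control library 2. The KEGG ribosome pathway had 5 higher and 8 lower of 284 tested (4.58%), with 5 lower without 120 control library 2. Above the share over all loci, though not the highest, the GO term defense response had 29 higher and 16 lower of 208 (21.6%). The KEGG pathway of ABC transporters had 12 higher and 3 lower of 71 (21.1%).

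**Figure D4:**
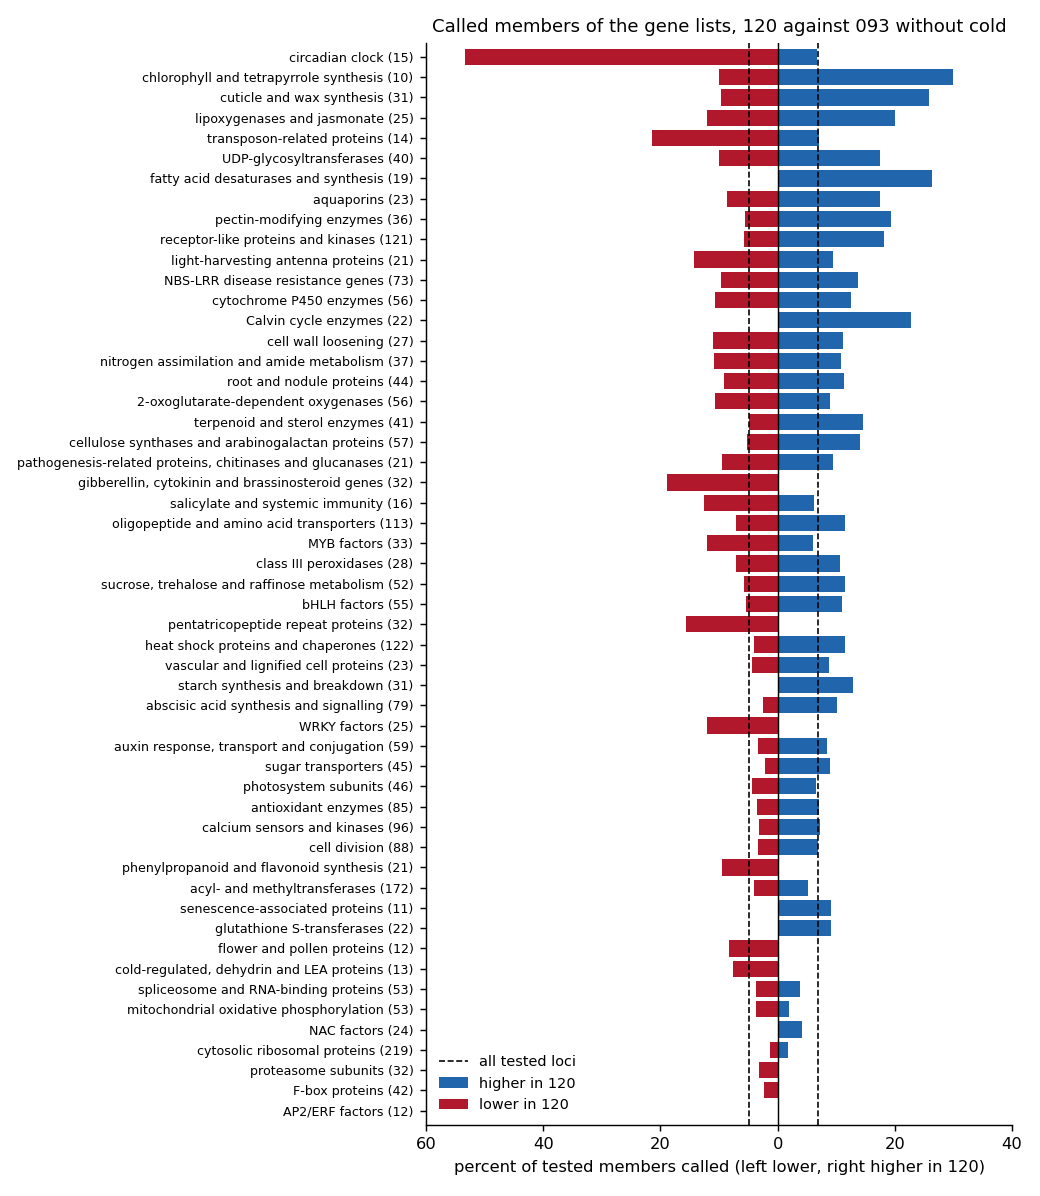
Percent of tested members called higher (to the right) and lower (to the left) in 120 for each list with at least 10 tested loci, with dashed lines at 6.92% and 4.82% for all 12689 loci. The list of circadian clock descriptions stands apart with 53.3% lower, and ribosomal proteins lie at 1.83% higher and 1.37% lower.

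Most of the differences seen without cold were not called after 3 days at 4 °C. Between the cold libraries of the varieties, 1258 of the same 12689 loci (9.91%) were called, 525 (4.14%) higher and 733 (5.78%) lower in 120. Of the 878 loci higher without cold, 170 (19.4%) were higher under cold and 39 lower, and their median log2 difference went from 1.41 to 0.20. Of the 611 lower loci, 172 (28.2%) were lower under cold and 10 higher, and their median went from -1.60 to -0.46. The change of the difference with cold was called for 551 (62.8%) of the higher and 325 (53.2%) of the lower loci, against 2321 (18.3%) of all tested loci. Loci picked for a large difference in the control libraries tend to show a smaller one in other libraries, and this test uses the control libraries again.

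Some families had members that were called both without and under cold. Over all loci called without cold, 19.4% of the higher and 28.2% of the lower were called the same way under cold. In the same direction as without cold, called members were 7 of 17 for NBS-LRR genes, 9 of 29 for receptor-like proteins and kinases and 3 of 8 for lipoxygenases and jasmonate. None of the called members did so among the 5 Calvin cycle enzymes, the 4 starch loci, the 5 fatty acid loci and the 11 UDP-glycosyltransferases, while the change of the difference was called for 4, 4, 4 and 7 of them. Members called the same way in both conditions were 2 of 13 for cytochrome P450 enzymes and 2 of 11 for cuticle and wax synthesis. They were 3 of 8 for terpenoid and sterol enzymes, 4 of 19 for heat shock proteins and chaperones and 1 of 9 for pectin-modifying enzymes. Differences between these lists were not tested. The terpene synthase Phvul.005G135000 stood at 0.0361 ± 0.0124 FPKM (mean ± SD, n = 3) in the cold libraries of 093 and 10.3 ± 5.54 FPKM in those of 120, and the receptor like protein MSTRG.9201 at 0.000211 ± 0.000366 and 18 ± 5.98 FPKM. Lipoxygenase 3 (Phvul.002G228700) stayed near silent in 120, with 61.3 ± 4.29 FPKM in 093 and 0.578 ± 0.161 FPKM in 120 under cold. Lipoxygenase 1 (MSTRG.12139) stood at 0.426 ± 0.0342 FPKM in 093 and 6.4 ± 3.5 FPKM in 120 under cold, a smaller difference than without cold. The magnesium chelatase locus Phvul.001G132200 stood at 83.6 ± 4.86 FPKM in 093 and 74.3 ± 9.54 FPKM in 120.

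**Figure D5:**
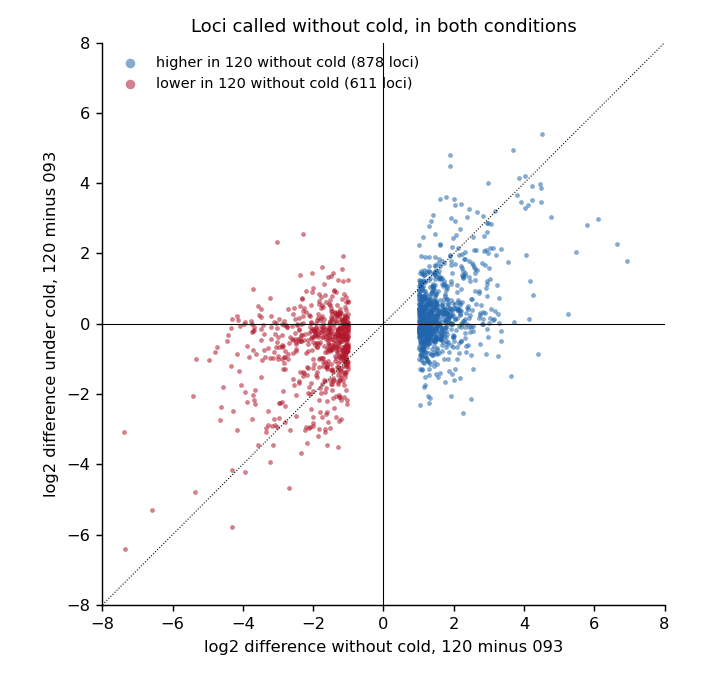
Log2 difference, 120 minus 093, without cold (horizontal axis) and under cold (vertical axis) for the 1489 loci called without cold. The 878 higher loci have a median of 0.20 under cold and the 611 lower loci a median of -0.46, and points on the diagonal would have the same difference in both.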

How the data were processed

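Messenger RNA of bean true leaves was sequenced as read pairs from stranded libraries, per the labels' protocols. The deposited values are FPKM calculated by the authors, 1 column per library per the file headers, and the submitters' processing notes name cutadapt 1.9, HISAT2 2.0.4 and StringTie 1.3.4d. The genome build is not given in the sources used here, and the table holds no coordinates. Read counts were not analysed here. The number of reads per library is unknown, which leaves no counting interval. Steps between low values gave relative depths from 1.0 to 1.32 for the control libraries, not checked against read totals.

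Loci that reached 1 FPKM in 3 or more of the 6 control libraries were tested on log2(FPKM + 1), which understates the change of low loci. A linear model with 1 mean per variety was fitted in R 4.3.3 with limma 3.58.1 and a variance trend, with two-sided p-values adjusted by the Benjamini-Hochberg method over all 12689 loci. The cold comparison and the change of the difference used the same loci. Called means an adjusted p under 0.05 and a log2 difference of at least 1 in size. The fit was tested on simulated data. Gene lists are words matched in the deposited descriptions. The members and lists were chosen with earlier results of these data known. Loci eligible to be named came in part from described called loci whose libraries did not overlap between the varieties. Of these, the 8 most strongly higher, the 8 most strongly lower and the 4 of highest level in each direction were taken. Also eligible were the 2 called members of each list with the largest difference, and those listed at 0 in a whole variety. Any other named locus in the results, 23 in all, was chosen after its values were seen, also where the sentence does not repeat it. No RefSeq symbol matched the gene names. Alternatives tried were 2 other scalings, 2 other filters, a pseudocount of 0.1, no variance trend, a fit on all 12 libraries, a replicate block and leaving out each library.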

Additional observations from a re-analysis of the deposited data

Results flagged for a closer look

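At 72 of the 90 loci named above that were called without cold, the difference between the varieties itself changed with cold: the log2 difference under cold minus that without cold was at least 1 in size with an adjusted p under 0.05 by limma over all 12689 loci. The same was so for 62.8% of all loci called higher, 53.2% of those called lower and 18.3% of all 12689 tested loci. Many of the named loci were chosen for a large difference without cold. At 3 of the 72 loci a group was listed at 0 in all its libraries, and these are left out below. At the other 69 loci the change was towards 120 at 27 and towards 093 at 42. Every value uses the same control libraries by which the locus was called, and cold and the incubator cannot be told apart. No group of 3 libraries was searched for outlying libraries.

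Among clock and clock-annotated loci, the change was positive at MSTRG.12776 (4.07), Phvul.009G045000 (4.00), Phvul.001G085200 (3.98), Phvul.007G083500 (3.96), Phvul.007G162500 (3.11), Phvul.009G004200 (2.92), Phvul.009G023700 (2.53) and Phvul.004G088300 (2.24). The change was negative for clock and clock-annotated loci at Phvul.008G240700 (-3.32), Phvul.001G097200 (-2.73), Phvul.003G189300 (-2.45), Phvul.006G086700 (-2.28), Phvul.004G143400 (-1.19) and Phvul.001G009700 (-1.005). For loci of photosynthesis, photorespiration and chlorophyll synthesis, the difference moved towards 120 at Phvul.011G148900 (3.13). Of loci of photosynthesis, photorespiration and chlorophyll synthesis, those that moved towards 093 were Phvul.010G016000 (-2.69), Phvul.007G252700 (-2.52), Phvul.001G132200 (-1.90), MSTRG.10102 (-1.23) and Phvul.002G150800 (-1.23). Among lipoxygenase, jasmonate and defence loci, the change was positive at Phvul.011G056500 (2.90), Phvul.009G117900 (2.37), Phvul.009G135800 (1.61) and Phvul.002G228700 (1.28). The change was negative for lipoxygenase, jasmonate and defence loci at Phvul.009G252400 (-5.16), MSTRG.12139 (-4.38), Phvul.010G134700 (-2.25), Phvul.010G134800 (-1.94), MSTRG.11638 (-1.81) and Phvul.001G000800 (-1.13). For loci of specialised metabolism, the difference moved towards 120 at Phvul.006G083200 (3.69), MSTRG.6964 (3.49), Phvul.010G079100 (3.33), Phvul.005G098900 (1.83) and Phvul.006G200600 (1.28). For starch, sugar, nitrogen and transport loci, the difference moved towards 120 at Phvul.006G069300 (2.77), Phvul.007G017500 (2.76) and Phvul.011G044000 (2.24). The change was negative for starch, sugar, nitrogen and transport loci at Phvul.005G174400 (-4.98), Phvul.008G069400 (-4.01), Phvul.004G007100 (-3.59), Phvul.008G282200 (-3.43), Phvul.003G226900 (-2.24), Phvul.003G225600 (-1.89), Phvul.011G046700 (-1.60) and Phvul.005G112400 (-1.41). The change was negative for lipid, surface and wall loci at Phvul.002G318500 (-3.84), Phvul.010G124800 (-2.69), Phvul.009G018300 (-2.65), Phvul.005G104600 (-2.60), Phvul.010G156200 (-2.23), Phvul.009G028700 (-2.18), Phvul.009G018200 (-1.62), Phvul.003G156600 (-1.60) and Phvul.006G068600 (-1.21). For other loci, the difference moved towards 120 at Phvul.007G056000 (4.35), MSTRG.287 (4.26), Phvul.006G146300 (3.78), Phvul.001G006300 (3.25), Phvul.008G242400 (1.37) and Phvul.006G149300 (1.31). Of other loci, those that moved towards 093 were Phvul.010G141200 (-5.26), Phvul.007G071100 (-3.42), Phvul.007G084000 (-2.28), Phvul.010G124900 (-2.04), Phvul.010G043400 (-1.73), Phvul.009G213000 (-1.65), Phvul.002G273100 (-1.57) and Phvul.003G291800 (-1.20).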

How the results depend on the processing

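Between the controls, 1489 loci were called, 878 higher and 611 lower in 120. Every alternative stayed within 1.5 times these counts. The total was 1393 under median-ratio scaling, 1391 under quantile normalization, 1345 with no filter, 1423 with a filter on mean FPKM, 1816 with a pseudocount of 0.1, 1481 without the variance trend and 1563 in the fit on all 12 libraries. Leaving out 1 library gave 1262 to 1569 calls, with 672 to 979 higher and 581 to 604 lower. Between 1172 and 1479 of the 1489 calls were kept under these alternatives and 0 changed direction. The split between directions moved with scaling, from 59% higher to 48.4% and 49.7%.

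Libraries of the same number in the 2 varieties did not deviate together (correlations 0.0008, -0.049 and -0.054), so the numbers give no pairing. With the replicate number as a block, 1415 loci were called, 827 higher and 588 lower. The block moved MSTRG.519 to an adjusted p of 0.092. Of the loci named above, 5 lost their call in at least 1 alternative. Depth limits low loci, where FPKM steps are coarse, and 586 loci that reached 1 FPKM in exactly 2 of the 6 libraries were not tested.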

Other observations

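Among loci that were not called, 7 had a log2 difference of 3 or more in size, with libraries that disagreed within a variety, and 5 of the 7 had no description. A RING/U-box protein (Phvul.006G153500), of a family of ubiquitin ligases, stood at 267, 425 and 4.16 FPKM in 093 and 4.0, 3.66 and 3.33 FPKM in 120, so that 093 control library 3 was like the 120 libraries. A homolog of the cyanobacterial YCF37 protein (Phvul.002G023600), an assembly factor of photosystem I, was listed at 0 in 093 control library 1 and stood at 122.7 and 175 FPKM in the other two, against 286, 581 and 416 FPKM in 120. The undescribed MSTRG.10576, which carries 3 gene names, had 7062, 11378 and 4145 FPKM in 093 and 2538, 11.6 and 1598 FPKM in 120. At that level this locus alone enters the scaling of every FPKM value, and its part in the other results was not tested. These loci were chosen after their values were seen.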
